A study of Homo sapiens with 9 samples.

Results

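The ADAM genes encode membrane-anchored proteins with a disintegrin and a metalloprotease domain. The genes examined here were ADAM23, ADAM22, ADAM8, ADAM9, ADAM10, ADAM12, ADAM15, ADAM17, ADAM19 and ADAM28, 10 of the 60649 gene identifiers in the count table. They were chosen by symbol and matched to the table through the GENCODE annotation by Ensembl identifier, and the question was whether ADAM23 stood alone in its family. RNA sequencing was performed on OVCAR5, an established human ovarian cancer cell line, after lentiviral transduction and puromycin selection of stable lines. The 9 libraries carry 3 labels with 3 replicates each. NC marks the control, and the labels give both SM2 and SM4 as knockdowns of METTL3, the catalytic subunit of the complex that writes N6-methyladenosine (m6A) on RNA. The design text describes the control as parental cells, whereas the study's methods describe a control hairpin, and the labels do not tie SM2 or SM4 to a particular hairpin against METTL3. A source field gives OVCAR6, OVCAR7 and OVCAR8 for the 3 SM4 libraries while the cell line field gives OVCAR5 throughout. No source states that the replicates were separate transductions or cultures, so p-values measure the spread between these libraries, which may be technical.

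METTL3 went against the labels. Its level was 36.3, 34.4 and 36.7 CPM (counts scaled to the library total) in the libraries labelled NC, 37.1, 39.8 and 40.01 CPM in those labelled SM2, and 60.6, 57.5 and 62.4 CPM in those labelled SM4. The lowest METTL3 levels were thus in the control label and the highest in a knockdown label. METTL3 was higher in SM4 than in NC by 0.75 ± 0.05 (log2 fold change ± SE, edgeR adjusted p = 2.21e-09), and SM2 against NC did not pass (0.12 ± 0.05, adjusted p = 0.12). It was also higher in SM4 than in SM2, the other knockdown label, by 0.63 ± 0.05 (edgeR adjusted p = 7.46e-08). Every direction below therefore rests on the labels, and group names stand for labels only. With the labels NC and SM4 exchanged, METTL3 would be lower in both knockdown groups than in the control, and every sign given for SM4 against NC would turn. SM4 against SM2 would then compare the control with a knockdown. SM2 against NC would compare the knockdowns with each other, so changes shared by both comparisons against NC would not be changes of both knockdowns from a control. The counts alone cannot tell whether such an exchange took place, so the direction of each change relative to a METTL3 knockdown is uncertain.

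Library totals ranged from 44103272 to 63693728 counts, so that 1 CPM stood for about 44 to 64 counts. SM2 replicate 3 stood apart from its group, with a chi-square per degree of freedom of 16.8 and 13.9 against the other SM2 libraries, where the remaining replicate pairs gave 4.23 to 6.10. The 6 epithelial markers checked, EPCAM, KRT8, KRT18, KRT19, CDH1 and CLDN4, had group means of 304 to 5873 CPM. Of 5 markers of other cell types, PTPRC, CD3E and COL1A2 reached at most 0.27 CPM, COL1A1 had group means of 22.9 to 24.1 CPM and PECAM1, an endothelial and blood cell adhesion molecule, had means of 5.48 CPM in NC, 8.23 CPM in SM2 and 13.7 CPM in SM4. The summed level of these 5 markers was 26.9 to 30.0 CPM in NC, 30.7 to 34.8 CPM in SM2 and 34.2 to 39.2 CPM in SM4, and without PECAM1 it was 21.2 to 24.5, 22.3 to 26.02 and 21.2 to 24.2 CPM. PECAM1 moved opposite to ADAM23 across the labels, and the part of other cells in the results was not tested. In bulk RNA, fewer cells expressing a gene and less RNA per cell cannot be told apart.

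ADAM proteases cut the extracellular part of other membrane proteins, a process called ectodomain shedding that releases growth factors, cytokine receptors and adhesion molecules from the cell surface. They are made as inactive precursors, are trimmed by proprotein convertases such as furin, and are held in check by tissue inhibitors of metalloproteases. Catalysis needs a zinc ion bound by a conserved motif with a trio of histidines. ADAM22 and ADAM23 lack an intact motif and act as adhesion proteins, chiefly known from neurons, where they bind secreted LGI proteins. ADAM23 has also been described as an integrin ligand and as a gene silenced in several cancers.

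The coding sequence of this motif is shown because it divides the family. In the canonical GENCODE transcripts (GRCh38), the zinc motif with its 3 histidine codons was found in 8 of the 10 genes and was not found in ADAM22 and ADAM23. The stretches below are 33 bases of coding sequence, written 5′ to 3′, with the codons at the 3 zinc-binding positions in capitals, and those of ADAM22, ADAM23 and ADAM11 were located by alignment of the translated transcripts.
ADAM15: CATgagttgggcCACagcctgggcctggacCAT
ADAM17: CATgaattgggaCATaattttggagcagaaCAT
ADAM10: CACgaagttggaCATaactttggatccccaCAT
ADAM22: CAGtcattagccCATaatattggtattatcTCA
ADAM23: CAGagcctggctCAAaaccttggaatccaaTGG
ADAM11: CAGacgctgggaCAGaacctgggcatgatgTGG
CAT and CAC are the histidine codons. ADAM15 (chr1:155056995-155057027, plus strand, exon 11), ADAM17 (chr2:9510078-9510110, minus strand, exon 11) and ADAM10 (minus strand, split over exons 9 and 10 of the gene on chromosome 15) had 3 of 3, ADAM22 (chr7:88134365-88134397, plus strand, exon 13) had 1 of 3, and ADAM23 (chr2:206562239-206562271, plus strand, exon 13) had 0 of 3. ADAM11 (chr17:44774528-44774560, plus strand, exon 13), which is not among the 10 genes, also had 0 of 3. In the alignments of translated coding sequence, ADAM23 shared 53.2% of positions with ADAM11 and 52.5% with ADAM22, against 28.4% to 37.1% with the other 8 genes.

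ADAM9, ADAM15, ADAM10 and ADAM17 were abundant in these cells and the other members were low. Levels were compared between genes as CPM per kilobase of the canonical transcript, so they depend on that choice of transcript. In the NC libraries ADAM9 was highest at 205 ± 4.03 CPM per kilobase (mean ± SD, n = 3), followed by ADAM15 at 87.2 ± 1.39, ADAM10 at 50.8 ± 1.92 and ADAM17 at 22.8 ± 0.36. A gap separated these proteases from ADAM28 at 1.86 ± 0.26 CPM per kilobase, ADAM22 at 1.73 ± 0.09, ADAM8 at 1.16 ± 0.08 and ADAM23 at 1.04 ± 0.08. Among NC libraries the ranges of ADAM28 and ADAM22, and those of ADAM8 and ADAM23, overlapped. In SM2 and SM4 the order of the 8 genes was the same and no neighbours overlapped, with ADAM23 lowest at 0.702 ± 0.025 CPM per kilobase in SM2 and 0.401 ± 0.109 in SM4. ADAM12, a protease of muscle and tumour stroma, had 1 to 10 counts per library, and ADAM19, a protease with roles in heart development, had 3 to 12 counts per library. Both failed the filter on low counts and were not tested, which left 8 of the 10 genes.

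**Figure D1:**
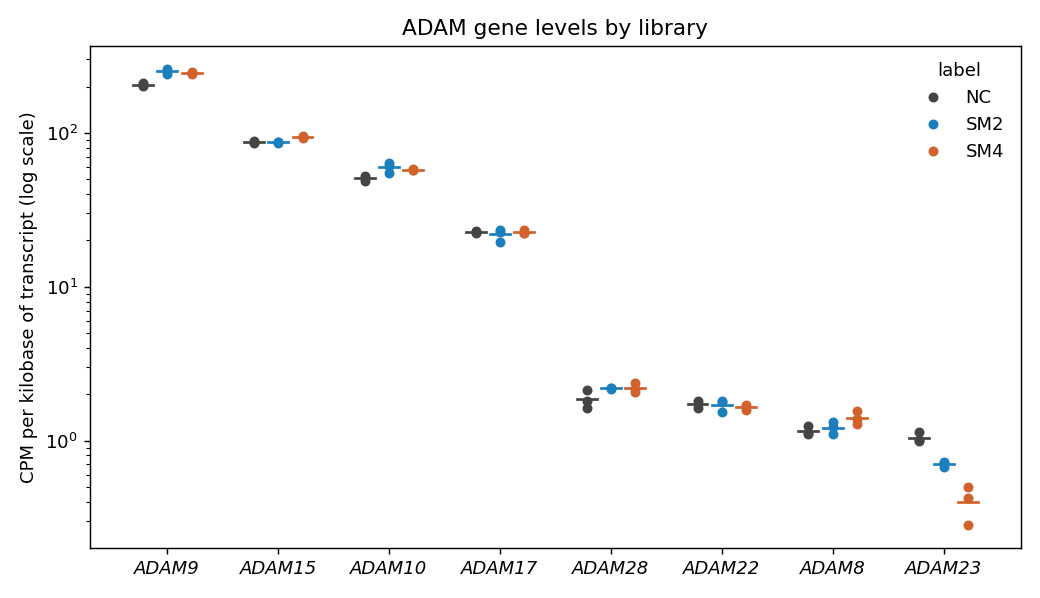
Level of the 8 tested ADAM genes in each library, in CPM per kilobase of canonical transcript on a log axis. Points are libraries, lines are group means and colours are the labels. ADAM9, ADAM15, ADAM10 and ADAM17 lie above 10 CPM per kilobase in every library, the other genes lie below 3, and ADAM23 falls from NC to SM2 to SM4 with no overlap between labels.

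In SM2 against NC, 3 of the 8 tested genes passed, where 22.3% of all 19674 tested genes did, using edgeR's quasi-likelihood test at an adjusted p below 0.05. ADAM23 was lower and ADAM9 and ADAM10 were higher. In SM4 against NC, 4 of 8 passed, against 21.2% of all genes: ADAM23 was lower, and ADAM9, ADAM10 and ADAM15 were higher. In SM4 against SM2, 1 of 8 passed, namely ADAM23, which was lower, against 12.8% of all genes (6.04% higher and 6.76% lower). A test for any difference among the 3 labels, which does not depend on which label is the control, was passed by the same 4 genes (ADAM23, ADAM9, ADAM10 and ADAM15), against 29.9% of all genes. The median log2 fold change of the 8 genes was 0.03, 0.15 and -0.02 in the 3 comparisons in that order, beside medians of all genes within 0.004 of 0. ADAM23 was the only one of the 8 to pass as lower in any comparison. Of all genes, 10.3%, 10.2% and 6.76% passed as lower in the 3 comparisons, so 1 lower gene among 8 was near the background. Both comparisons against NC use the same NC libraries and are not independent of each other.

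ADAM23 (chr2:206443532-206621127, plus strand) decreased stepwise across the labels. Its level was 7.16, 6.36 and 6.25 CPM in NC, 4.58, 4.49 and 4.26 CPM in SM2, and 1.79, 3.15 and 2.67 CPM in SM4, from 314, 346 and 366 counts, 209, 216 and 226 counts, and 109, 199 and 137 counts. Every SM2 library was below every NC library, and every SM4 library was below every SM2 library, with SM4 replicate 1 the lowest of all. The spread was widest in SM4, at 2.54 ± 0.688 CPM (SD, n = 3), beside 6.59 ± 0.497 CPM in NC and 4.44 ± 0.161 CPM in SM2. Between NC and SM2, ADAM23 fell by 0.57 ± 0.15 on the log2 scale (adjusted p = 0.00765, edgeR). In SM4 against NC it fell by 1.37 ± 0.15 (adjusted p = 1.07e-06), a level 2.59-fold lower with a 95% interval of -1.69 to -1.05 on the log2 scale. In SM4 against SM2 it fell by 0.81 ± 0.16 (adjusted p = 0.00131). Groups that did not overlap were found for 35.2%, 38.4% and 28.3% of all genes in the 3 comparisons. To pass in all 3 comparisons with SM2 between NC and SM4 was less frequent, at 1.2% of all genes (2.65% passed in all 3 with SM2 at any place), and ADAM23 was 1 of 102 genes (0.518%) that did so in the direction of a decrease. The study singled out ADAM23 from these libraries together with separate METTL3 overexpression data, and then followed the gene by further assays. Its difference between the labels here is therefore not independent evidence. Its sign relative to a METTL3 knockdown is uncertain for the reason given with METTL3.

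ADAM22 (chr7:87934143-88202889, plus strand), the relative with which ADAM23 shares the loss of the zinc motif, did not follow it. Its level was 17.3, 15.6 and 16.5 CPM in NC, 16.9, 17.1 and 14.7 CPM in SM2, and 16.2, 14.9 and 15.6 CPM in SM4. The 3 groups overlapped in every pair. The log2 fold change was -0.02 in SM2 against NC, with a 95% interval of -0.18 to 0.14, and -0.08 in SM4 against NC, with an interval of -0.24 to 0.08. A change of ADAM22 as large as that of ADAM23 in SM4 therefore lay outside its interval.

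ADAM11 (chr17:44758988-44781846, plus strand), a brain-enriched relative that also lacks the histidines, had a different pattern again. It was at 4.77, 4.78 and 4.58 CPM in NC, 6.24, 6.78 and 6.87 CPM in SM2, and 5.61, 4.79 and 4.33 CPM in SM4. The SM2 libraries lay above all others, and the SM4 range enclosed the NC range. Between NC and SM2, ADAM11 rose by 0.49 ± 0.11 on the log2 scale (adjusted p = 0.00316, edgeR) and did not pass in SM4 against NC (0.06 ± 0.12, adjusted p = 0.766). It was lower in SM4 than in SM2 by a log2 change of -0.43 ± 0.11 (adjusted p = 0.0138), a call lost without SM4 replicate 3 (-0.35, adjusted p = 0.0843).

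**Figure D2:**
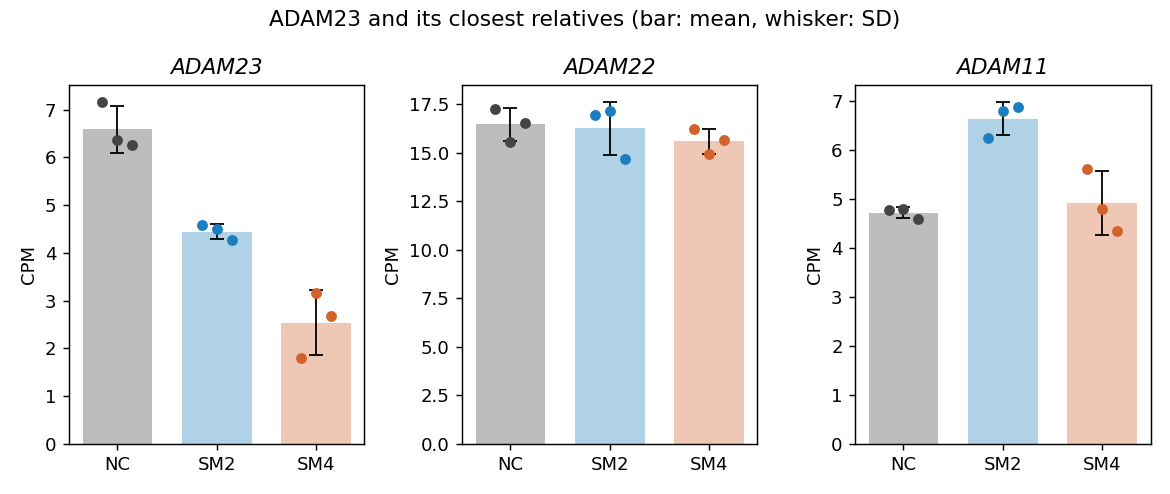
CPM of ADAM23, ADAM22 and ADAM11 in each library (points), with the group mean (bar) and SD (whisker). ADAM23 steps down from 6.59 to 4.44 to 2.54 CPM, ADAM22 stays between 14.7 and 17.3 CPM, and ADAM11 is highest in SM2.

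Whether ADAM23 moved apart from ADAM22 and from ADAM10 was tested on ratios within each library, which do not depend on library scaling. The other members were not tested in this way. The study had singled out ADAM23 with the help of these libraries, so a small p for these ratios is not independent evidence. The log2 ratio of ADAM23 to ADAM22 was -1.27, -1.29 and -1.40 in NC, -1.88, -1.93 and -1.78 in SM2, and -3.17, -2.24 and -2.55 in SM4. The ratio of ADAM23 to ADAM10, an abundant protease of the family, was -6.35, -6.41 and -6.51 in NC, -7.27, -7.23 and -7.17 in SM2, and -8.47, -7.69 and -7.91 in SM4. No library of one label reached the range of another label in either ratio. An exact permutation test over all ways of assigning the 9 libraries to 3 groups of 3 gave p = 0.00357 for each ratio (n = 3 per group), which is the smallest p this design allows, and the values adjusted over the 2 ratios were the same.

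Among the proteolytic members, ADAM9 (chr8:38996754-39105445, plus strand), a widely expressed sheddase, rose in both comparisons against NC. It was at 861, 841 and 828 CPM in NC, 1074, 1041 and 993 CPM in SM2, and 1009, 1022 and 989 CPM in SM4. All 6 SM2 and SM4 libraries were above all NC libraries, and SM2 and SM4 overlapped. The log2 fold change was 0.30 ± 0.04 in SM2 against NC (adjusted p = 9.40e-06) and 0.26 ± 0.04 in SM4 against NC (adjusted p = 5.03e-05), an increase of 22.8% and 19.4%. TM2D2, which overlaps ADAM9 on the opposite strand, was also higher, by 0.28 and 0.19. Its mean level was 65.8 CPM, and since the use of strand in counting was not stated, reads from the shared bases cannot be assigned with certainty.

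ADAM10 (chr15:58588809-58749791, minus strand), the main sheddase of Notch receptors and of E-cadherin, showed a similar shift. It was at 586, 543 and 571 CPM in NC, 707, 678 and 615 CPM in SM2, and 638, 651 and 643 CPM in SM4. Every SM2 and SM4 library lay above every NC library, and SM2 replicate 3 was the lowest of the 6. ADAM10 rose by 0.23 ± 0.05 in SM2 against NC (adjusted p = 0.00088) and by 0.18 ± 0.05 in SM4 against NC (adjusted p = 0.00665) on the log2 scale. The latter call was lost without NC replicate 2 (0.15, adjusted p = 0.0617).

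ADAM17 (chr2:9488486-9556732, minus strand), the sheddase of tumour necrosis factor and of several ligands of the epidermal growth factor receptor, passed in no comparison. It was at 101.8, 98.6 and 99.9 CPM in NC, 103.0, 100.1 and 85.7 CPM in SM2, and 97.4, 103.2 and 98.6 CPM in SM4. SM2 replicate 3 was the low library and the others lay close together. The 95% interval of the log2 fold change was -0.17 to 0.06 in SM2 against NC and -0.12 to 0.11 in SM4 against NC. IAH1, which overlaps ADAM17 on the opposite strand, had a mean of 38.8 CPM and was lower in SM2 against NC (-0.20, edgeR adjusted p = 0.0205). The limit on strand given for ADAM9 applies here too.

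ADAM15 (chr1:155050566-155062775, plus strand), a protease of cell contacts, was at 252, 257 and 260 CPM in NC, 256, 255 and 253 CPM in SM2, and 276, 279 and 273 CPM in SM4. The SM4 libraries were above all others, by a small amount. ADAM15 passed in SM4 against NC with a log2 fold change of 0.11 ± 0.04 and an adjusted p of 0.0489 (edgeR), an increase of 7.8%. This call was lost in 10 of 16 alternative settings, among them leaving out any of the NC or SM4 libraries, with fold changes of 0.10 to 0.12 and adjusted p up to 0.205. SM4 against SM2 gave 0.12 ± 0.04 (adjusted p = 0.0517).

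ADAM28 (chr8:24294069-24359014, plus strand), a protease first known from lymphocytes and also made by carcinoma cells, was at 15.1, 11.5 and 12.7 CPM in NC, 15.1, 15.5 and 15.4 CPM in SM2, and 16.6, 14.4 and 15.1 CPM in SM4. NC replicate 1 lay near the SM2 and SM4 libraries, and the other NC libraries lay below them. The log2 fold change was 0.24 ± 0.09 in both comparisons against NC and did not pass (adjusted p = 0.067 for SM2 and 0.0646 for SM4). Without NC replicate 1 both passed, at 0.34 (adjusted p = 0.0107) and 0.35 (adjusted p = 0.0096). Over 16 alternative settings the SM2 comparison passed in 3 and the SM4 comparison in 5, among them no filter on low counts for both (adjusted p = 0.0471 and 0.0427) and, for SM4, only the 6 libraries compared (adjusted p = 0.0483) and leaving out SM2 replicate 3 (adjusted p = 0.0329).

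ADAM8 (chr10:133262420-133276868, minus strand), a protease of leukocytes and invasive tumours, was at 3.60, 3.66 and 4.07 CPM in NC, 3.57, 4.01 and 4.28 CPM in SM2, and 4.51, 4.19 and 5.07 CPM in SM4. The SM4 libraries lay above the NC libraries, and SM2 overlapped both. None of its comparisons passed, with a log2 fold change of 0.28 ± 0.13 in SM4 against NC (adjusted p = 0.135).

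**Figure D3:**
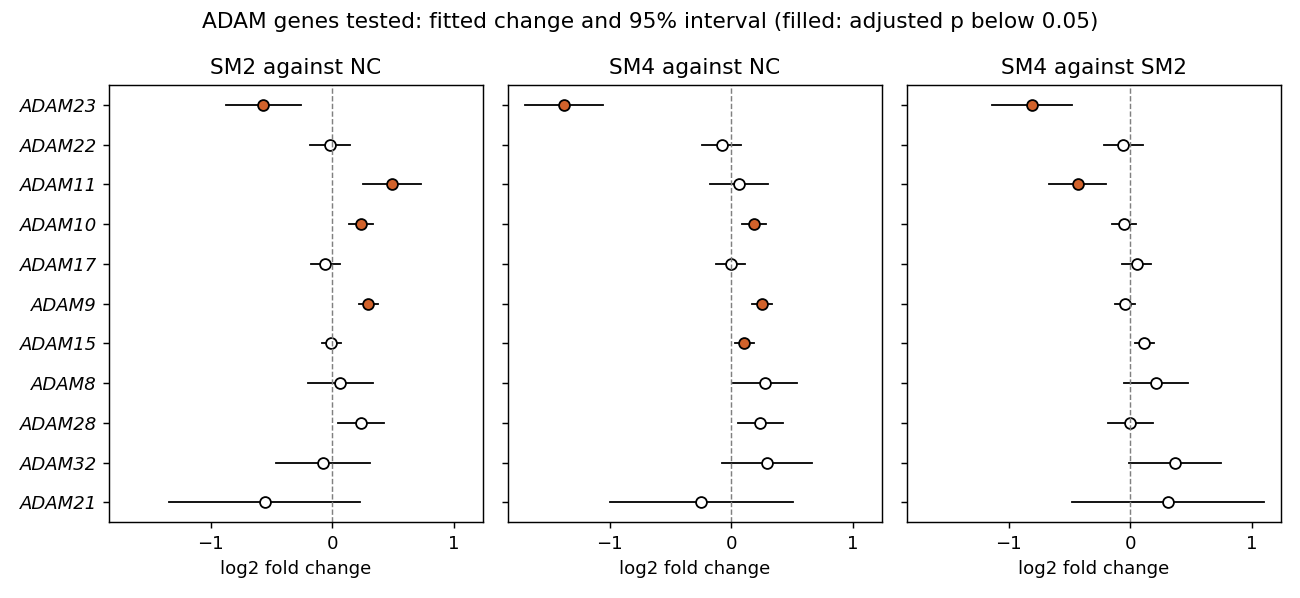
Fitted log2 fold change (points) with its 95% interval (lines) for the 8 tested members and the further tested genes ADAM11, ADAM32 and ADAM21, in the 3 comparisons on a shared axis. Filled points passed at an adjusted p below 0.05. ADAM23 lies below 0 in all 3 panels, and ADAM9 and ADAM10 lie above 0 in both panels against NC.

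Of 11 further ADAM genes listed, 3, ADAM11, ADAM21 and ADAM32, passed the filter. ADAM21 had group means of 0.376 to 0.555 CPM and ADAM32 of 1.81 to 2.33 CPM, and neither passed in any comparison. The other 8 reached at most 0.18 CPM, and 5 of them were at 0 in all libraries. Counting all 21 ADAM genes, 11 were tested, and those lower in any comparison were ADAM23 and, in SM4 against SM2, ADAM11.

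The related ADAMTS genes encode secreted proteases of the extracellular matrix, and 7 of 19 were tested. Of these, 2 were higher and 2 lower in SM2 against NC, and 0 were higher and 2 lower in SM4 against NC, against 12% and 11% of all genes higher and 10.3% and 10.2% lower. Without SM2 replicate 1, 4 were higher in SM2 against NC. The 0 higher in SM4 against NC was also the count by DESeq2, and 1 gene had an unadjusted p below 0.05 by each tool. ADAMTS9, which cleaves proteoglycans such as versican, was at 0.798, 0.791 and 0.769 CPM in NC, 1.66, 1.66 and 1.70 CPM in SM2, and 0.197, 0.301 and 0.312 CPM in SM4. It rose in SM2 and fell in SM4, with no overlap of any groups, from 12 to 90 counts per library. The log2 fold changes were 1.09 ± 0.24 (adjusted p = 0.00177), -1.54 ± 0.28 (adjusted p = 0.000365) and, for SM4 against SM2, -2.63 ± 0.27 (adjusted p = 6.32e-07, edgeR). ADAMTS16 fell by 0.63 ± 0.11 in SM2 and by 0.43 ± 0.10 in SM4 against NC (adjusted p = 0.000171 and 0.00428). ADAMTS13, the protease of von Willebrand factor, was higher in SM2 against NC (0.37 ± 0.13, adjusted p = 0.0465), a call lost without any of NC replicates 1, 2 and 3, SM2 replicates 2 and 3 or SM4 replicate 3 (0.29 to 0.42). ADAMTS15 was lower in SM2 against NC (-0.26 ± 0.08, adjusted p = 0.0163), a call lost without NC replicate 2 or SM2 replicate 2 (-0.24 and -0.22).

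The 13 genes whose products carry or process ADAM proteases were all tested. They comprise the inactive rhomboids RHBDF1 and RHBDF2 and their partner FRMD8, which escort ADAM17, the tetraspanins that escort ADAM10, and the proprotein convertases. In SM2 against NC 5 rose and 0 fell, and in SM4 against NC 6 rose and 0 fell, against 12% and 11% of all genes higher and 10.3% and 10.2% lower. This list, like the other gene lists here, was drawn up with earlier results of these data known. Its counts beside all genes are therefore a description and not a test of enrichment. The 0 that fell held for edgeR and DESeq2 and for unadjusted p below 0.05. Their median log2 fold change was 0.12 and 0.19. FURIN, the convertase that trims most ADAM precursors, rose from 138, 134 and 140 CPM in NC to 179, 187 and 176 CPM in SM2 and 219, 246 and 226 CPM in SM4. The groups did not overlap, and the order of FURIN across labels was the reverse of that of ADAM23. The log2 fold changes of FURIN were 0.39 ± 0.05 (adjusted p = 3.41e-06), 0.74 ± 0.05 (adjusted p = 3.81e-10) and, for SM4 against SM2, 0.35 ± 0.05 (adjusted p = 2.61e-05). FRMD8 rose from a mean of 52.3 ± 1.04 CPM (SD, n = 3) in NC to 69.3 ± 2.05 in SM2 and 78.6 ± 3.42 in SM4, by 0.41 ± 0.05 and 0.59 ± 0.05 on the log2 scale (adjusted p = 3.41e-06 and 1.78e-08). Its difference between SM4 and SM2 (0.18, adjusted p = 0.0154) did not pass without SM4 replicate 2 or 3 (0.18 and 0.15). PCSK6, another convertase, rose in both (0.33 ± 0.07 and 0.32 ± 0.07, adjusted p = 0.000761 and 0.00119). TSPAN33 rose in SM2 (0.42 ± 0.14, adjusted p = 0.0338), a call lost on leaving out replicate 2 or 3 of either NC or SM2 (0.33 to 0.42). In SM4 against SM2, 2 genes passed, FURIN and FRMD8, and 1 passed without SM4 replicate 3. Of all genes 12.8% passed in SM4 against SM2, 6.04% as higher.

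All 5 inhibitor genes were tested, and 3 passed in SM2 against NC and 4 in SM4 against NC, against 22.3% and 21.2% of all genes. TIMP3, the tissue inhibitor that acts on ADAM10 and ADAM17, was at 3.24, 3.51 and 3.71 CPM in NC, 8.91, 8.45 and 6.90 CPM in SM2, and 6.79, 7.01 and 6.98 CPM in SM4. It rose by 1.21 ± 0.12 and 0.99 ± 0.12 on the log2 scale (adjusted p = 1.65e-07 and 2.01e-06), and all 6 libraries were above all NC libraries. TIMP2 rose by 0.37 ± 0.04 and 0.27 ± 0.04 (adjusted p = 1.12e-06 and 5.52e-05), from a mean of 189.9 CPM in NC to 246 and 229 CPM. TIMP1, which inhibits ADAM10, fell by 0.27 ± 0.05 and 0.22 ± 0.05 (adjusted p = 0.000444 and 0.00341), from 89.0 CPM to 73.7 and 76.6 CPM. RECK, a membrane-anchored inhibitor, was higher in SM4 against NC (0.55 ± 0.19, adjusted p = 0.0428), a call lost in 8 of 16 alternative settings. These were leaving out NC replicate 2 or 3, SM2 replicate 2 or SM4 replicate 1 or 3 (0.44 to 0.58), DESeq2 (adjusted p = 0.0685), no filter on low counts (adjusted p = 0.0864) and the replicate number as a block (adjusted p = 0.0502).

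**Figure D4:**
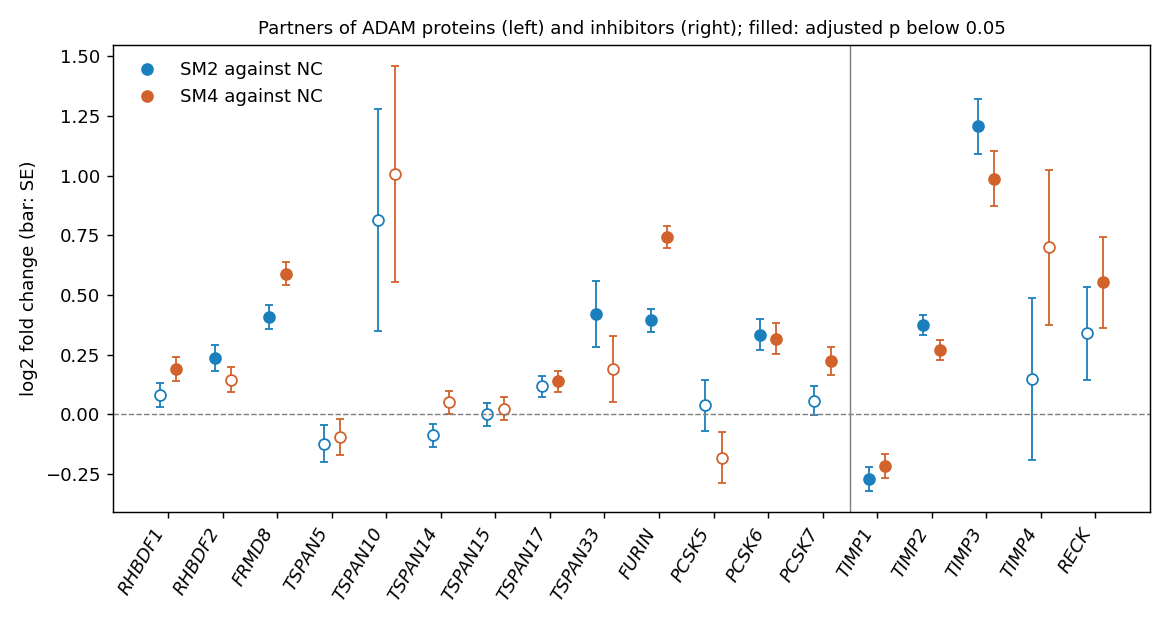
Log2 fold change with its SE for 13 genes that carry or process ADAM proteins (left of the line) and 5 inhibitor genes (right), in SM2 against NC and SM4 against NC. Filled points passed at an adjusted p below 0.05. FURIN, FRMD8 and TIMP3 lie above 0 in both, and TIMP1 lies below 0 in both.

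Of 10 genes for binding partners of ADAM22 and ADAM23, 8 were tested. LGI1 and LGI2, secreted ligands, had at most 2 counts in a library and were not tested, and LGI3 and LGI4 had group means of at most 0.343 CPM and did not pass. ITGAV and ITGB3 encode the subunits of an integrin bound by ADAM23. ITGAV was at group means of 278 to 295 CPM and passed in no comparison, while ITGB3, at 1.60 CPM in NC and 2.62 CPM in SM2, was higher in SM2 against NC (0.71 ± 0.19, adjusted p = 0.00854). Among the scaffold proteins that bind ADAM22, DLG4 rose in both (0.33 ± 0.08 and 0.47 ± 0.08, adjusted p = 0.00642 and 0.000284). DLG1 fell by 0.15 ± 0.04 in SM2 against NC (adjusted p = 0.0167), a call lost on leaving out replicate 1 or 2 of NC, or replicate 2 of SM2 (-0.15 to -0.14).

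Of 35 genes for known substrates of ADAM proteases, 32 were tested. In SM2 against NC 3 rose and 11 fell, and in SM4 against NC 5 rose and 10 fell, with medians of -0.08 and -0.01. Of all genes 12% and 11% were higher and 10.3% and 10.2% lower, so the share that rose was near the background. The growth factor precursor EREG fell from 614 CPM in NC to 467 and 431 CPM, and the adhesion molecules CDH1 and CD44 fell from 813 to 682 and 631 CPM and from 422 to 375 and 332 CPM. These 3 were chosen after their values were seen. By the rule set for naming genes, JAG1, a Notch ligand, fell from 76.2 ± 1.31 CPM (SD, n = 3) in NC to 52.6 ± 2.15 and 51.4 ± 1.5 CPM, by 0.54 ± 0.05 and 0.57 ± 0.05 on the log2 scale (adjusted p = 8.61e-08 and 2.72e-08). L1CAM, a neural adhesion molecule, was low and rose from 0.934 CPM to 2.29 and 1.71 CPM (1.31 ± 0.21 and 0.89 ± 0.21, adjusted p = 0.000102 and 0.00412). CDH2 had 0, 4 and 2 counts in NC and 7, 14 and 13 in SM4 (adjusted p = 0.0257). Its call was lost on leaving out replicate 1 or 3 of NC, or replicate 2 or 3 of SM4 (1.83 to 2.22). DLL1, another Notch ligand, had 10, 17 and 31 counts in SM2 and 5, 11 and 5 in SM4 (-1.69 ± 0.49, adjusted p = 0.0261), and this call was lost without SM2 replicate 2 or 3 or SM4 replicate 1 or 3 (-1.75 to -1.25). In SM4 against SM2 8 rose and 5 fell, against 6.04% and 6.76% of all genes, and the number that fell was 8 without SM2 replicate 3 and 2 without SM4 replicate 1 or 3. The number that rose was 6 in SM2 against NC without SM2 replicate 3, 3 in SM4 against NC without NC replicate 1, and 2 there without NC replicate 3 or SM4 replicate 2 or 3, and it was 5 in SM4 against SM2 without SM4 replicate 2.

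No tested neighbour of ADAM23 on chromosome 2 passed as lower in all 3 comparisons, as ADAM23 did. Of all genes 0.518% did so, so the absence of another among 8 carries little information. Within 500000 bases of the gene, 40 other genes are annotated and 8 were tested. Of these, 2 passed in SM2 against NC and 1 in SM4 against NC, against 22.3% and 21.2% of all genes. FASTKD2, a mitochondrial RNA-binding protein gene that starts 144230 bases beyond the end of ADAM23, was lower in SM2 (-0.30, adjusted p = 0.000124) and in SM4 (-0.20, adjusted p = 0.00417) against NC. KLF7, a transcription factor gene 453010 bases away, was lower in SM2 (-0.17, adjusted p = 0.0434), a call lost in 10 of 16 alternatives, each NC library and SM2 replicates 1 and 2 among those left out. In SM4 against SM2, 0 of the 8 passed by edgeR or by DESeq2, with 2 at an unadjusted p below 0.05 by each tool. Of all genes 12.8% passed there by edgeR. An annotated antisense RNA that overlaps ADAM23 reached at most 0.074 CPM.

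Because METTL3 writes m6A in a sequence context of which GGACT is a frequent form, the transcript of ADAM23 was searched for these letters on its sense strand. Its 6334 bases held 5 matches, 1 in the 5′ untranslated region, 2 in the coding sequence and 2 in the 3′ untranslated region. They are shown with 10 bases on either side, the motif in capitals.
Coding site in exon 11: gtagagacctGGACTgagaaggatc
Coding site across exons 5 and 6: aacctgcaatGGACTtcatggcatg
Site in the first exon: gaggacccctGGACTcctctgcgtc
Upstream site in the last exon: gttttctcctGGACTgagcatcctt
Downstream site in the last exon: gctttctctaGGACTaggtgtacgt
The site in exon 11 is at chr2:206559997-206560021 and those in the last exon at chr2:206618353-206618377 and chr2:206619836-206619860 (GRCh38, plus strand). At 0.789 matches per kilobase the ADAM23 transcript was below the median of 0.935 over 13785 transcripts, and 40.3% of genes had a lower density. Of all these transcripts 91.3% held at least 1 match. Among the members the density ranged from 0.228 per kilobase in ADAM17 to 1.53 in ADAM8, and ADAM22 had 0.841. These are matches of letters, and no m6A was measured in these libraries. GGACT is not the only form of the context, so its density does not show whether a transcript carries m6A. The study examined m6A on ADAM23 separately, by site prediction and by a gene-specific m6A assay.

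The genes whose levels most resembled ADAM23 were sought beyond the family. So few of the genes searched were ADAM genes that the nearest would lie outside the family almost regardless of how its relatives behaved. Likeness was the root mean square difference between log2 CPM profiles over the 9 libraries, each centred on its own mean, among 12065 tested protein-coding genes with a mean of at least 1 CPM. The 5 nearest were INSYN2B (0.173), CA8 (0.203), CSGALNACT1 (0.226), CEACAM5 (0.228) and PIP5K1B (0.230), beside a median of 0.616 over all genes. INSYN2B went from 18.1 ± 1.35 CPM (SD, n = 3) in NC to 11.2 ± 0.131 in SM2 and 7.80 ± 0.940 in SM4. CEACAM5, which encodes the carcinoembryonic antigen, went from 85.5 ± 3.37 to 47.5 ± 0.627 and 30.1 ± 0.9753 CPM. CA8, a carbonic anhydrase relative, had 15.4, 13.0 and 6.79 CPM, CSGALNACT1, an enzyme of chondroitin sulphate synthesis, had 10.3, 7.92 and 4.63 CPM, and PIP5K1B, a phosphoinositide kinase, had 5.02, 4.35 and 2.18 CPM as means of NC, SM2 and SM4. Unlike ADAM23, CA8 and PIP5K1B did not pass in SM2 against NC (-0.24 and -0.21, edgeR adjusted p = 0.092 and 0.25). In this order of likeness ADAM22 was at rank 3968, ADAM17 at 5259, ADAM15 at 8496, ADAM11 at 9242, ADAM10 at 9334, ADAM9 at 10112, ADAM28 at 10343 and ADAM8 at 10634. The profiles share the same 9 libraries, so this is a description of these samples.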

How the data were processed

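The authors deposited raw read counts per gene for 9 libraries, with no normalization. Per the submitters' processing notes and the study's methods, reads were handled with fastp, HISAT2 and featureCounts of Subread on GRCh38 (hg38), with versions, annotation and strand setting not given in the sources used here. The labels name a stranded kit with paired reads, while the methods name another kit with single reads. Totals ranged from 44103272 to 63693728 counts, without molecular identifiers. Of 60649 identifiers, 60463 matched GENCODE release 44.

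Groups came from library titles. The members and lists were chosen with earlier results of these data known. In R 4.3.3, filterByExpr of edgeR 4.0.16 kept 19674 genes. TMM factors and glmQLFit with glmQLFTest were applied to all 9 libraries, with the group as the only term, and p-values were adjusted by Benjamini-Hochberg over all tested genes, with 0.05 as the threshold. The fit was tested on simulated data. CPM used TMM-scaled totals. Ratios used log2 of counts plus 0.5 and an exact permutation test for any difference among the groups in Python 3.11.15. Genes named were METTL3, the members, tested ADAM genes, up to 4 called genes with the largest change per further list, the 5 genes most like ADAM23, tested neighbours within 500000 bases and markers. Alternatives were other normalizations, filters, DESeq2 1.42.0, only the 6 libraries compared, a replicate block and leaving out each library. Their application to the further lists was chosen after seeing the data. A marker gene of the fixed lists is not reported here.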

Additional observations from a re-analysis of the deposited data

Results flagged for a closer look

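The genes below differed between the effects of the labels SM2 and SM4 against the common NC libraries, as tested directly by SM4 against SM2 in edgeR. They were taken from the tested ADAM genes and from the genes named by rule in the further lists. Other genes differed as well: 12.8% of all genes passed in this comparison, METTL3 among them (0.63). Of the 32 tested substrate genes 13 passed, 8 as higher and 5 as lower, and only DLL1 of these is given here. ADAM23 was lower in SM4 than in SM2 by a log2 change of -0.81 (adjusted p = 0.00131), with all 3 SM4 libraries below all 3 SM2 libraries. ADAM11 was lower by -0.43 (adjusted p = 0.0138), and ADAMTS9, which was above NC in SM2 and below it in SM4, by -2.63 (adjusted p = 6.32e-07). DLL1 differed by -1.69 (adjusted p = 0.0261) at 5 to 31 counts per library. FURIN was higher in SM4 than in SM2 by 0.35 (adjusted p = 2.61e-05) and FRMD8 by 0.18 (adjusted p = 0.0154). Without one SM4 library, the calls of ADAM11 (without replicate 3), FRMD8 (2 or 3) and DLL1 (1 or 3) were lost, as was that of DLL1 without SM2 replicate 2 or 3.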

How the results depend on the processing

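ADAM23 kept its direction and passed in all 3 comparisons under each of 16 alternatives, at -0.61 to -0.51 in SM2 against NC, -1.57 to -1.17 in SM4 against NC and -1.004 to -0.60 in SM4 against SM2. The members passing numbered 2 (ADAM23 and ADAM9) in SM4 against NC without NC replicate 2, with 2 to 5 over the left-out libraries, and 2 (ADAM23 and ADAM15) in SM4 against SM2 under DESeq2, the minimum mean of 1 CPM, upper-quartile normalization and the replicate block. The cause was not tested. Changes near 0 that did not pass turned sign. Over the left-out libraries ADAM15 ranged from -0.022 to 0.0022 in SM2 against NC, ADAM17 from -0.11 to 0.024 in SM2 against NC, from -0.031 to 0.016 in SM4 against NC and from -0.026 to 0.10 in SM4 against SM2, ADAM22 from -0.062 to 0.055 in SM2 against NC, ADAM28 from -0.053 to 0.046 in SM4 against SM2 and ADAM11 from -0.039 to 0.14 in SM4 against NC. Under upper-quartile normalization ADAM15 in SM2 against NC was 0.0062 and ADAM17 in SM4 against NC was 0.013, ADAM17 was 0.0015 there at a mean of at least 1 CPM, and ADAM28 in SM4 against SM2 was -0.0027 with the replicate block. The ratio tests gave p = 0.00357 to 0.00714 by exact permutation when a library was left out. Whether the replicate numbers pair the samples was not settled. Same-number correlations of deviations from the group means were -0.053 to 0.045, and those of unlike numbers were -0.065 to 0.092. Each NC library correlated best with the SM2 and the SM4 library of its own number (0.0073 to 0.041), as did SM2 replicate 3 with SM4 (0.045). SM2 replicate 1 correlated best with SM4 replicate 2 (0.092), and SM2 replicate 2 with SM4 replicate 1 (0.035). With the number as a block, 4693, 4484 and 2815 genes passed in place of 4389, 4173 and 2518, the members passing numbered 2 in SM4 against SM2, ADAM28 passed against NC (adjusted p = 0.038 and 0.0395), and the ratio tests gave p = 0.0278 by exact permutation. Without SM4 replicate 1, 1574 genes passed in SM4 against SM2. ADAM12, ADAM19, CDH2 and DLL1 had at most 31 counts in a library, so depth limits what can be said of them.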
